A study of Mus musculus with 12 samples.

Results

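The mitochondrial ribosomal protein genes were taken as all genes whose annotated symbol starts with Mrpl or Mrps followed by a number, with the probe set of highest mean signal standing for each symbol. There were 76 such genes among the 19505 genes of the table. Of these, 48 had an Mrpl symbol, named for the large subunit, and 28 an Mrps symbol, named for the small subunit. All were measured in RAW 264.7 cells, an established mouse macrophage-like line, with 12 Affymetrix arrays in 4 groups of 3. Every group received lipopolysaccharide (LPS), a bacterial outer-membrane component that activates macrophages, at 500 ng/mL, and was cultured for 6 hours at 37°C in 5% CO2. One group had LPS alone, another had TsSP at 50 µg/mL with LPS, another had inulin, a plant fructan, at 500 µg/mL with LPS, and the last had inulin, TsSP and LPS together at those doses. TsSP is kept as the labels write it, and the design text speaks of helminth products. No group without LPS was analysed here, so each difference lies within LPS-stimulated cells of a single line. The labels leave unsaid whether the replicate arrays stand for separate cultures, and the p-values then cover the spread between these arrays alone, which may be technical.

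Mitochondria keep their own ribosomes, which translate the few proteins encoded by mitochondrial DNA, all of them core subunits of the respiratory chain and ATP synthase. Both ribosomal RNAs come from mitochondrial DNA, but every protein of the particle is encoded in the nucleus, made in the cytosol and imported. Some of these proteins descend from bacterial ribosomal proteins and carry the bacterial number, and others joined the particle after the bacterial ancestor became an organelle. LPS-activated macrophages are known to shift from respiration towards glycolysis.

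The genes were detected throughout. Background was set per array at the brightest of 23 background probes, and all 76 genes lay above it on every array of at least 1 group, as did 9022 of the 19505 genes. The single exception to detection on all 12 arrays was Mrpl41, which read 6.12 on LPS replicate 1 against a background of 6.16. The mean log2 signal over 12 arrays ran from 6.52 for Mrpl36, 7.00 for Mrpl41, 7.23 for Mrpl54, 7.23 for Mrps35 and 7.54 for Mrps16 up to 13.28 for Mrpl13, 13.32 for Mrpl20, 13.36 for Mrpl33, 13.58 for Mrpl17 and 13.91 for Mrpl45. Probe sets differ in how strongly they hybridise, so these levels give no order of transcript abundance. All 9 measured macrophage markers of 10 listed lay above background on all arrays, and none of the 15 measured markers of B cells (3), T cells (4), fibroblasts (4) and epithelium (4) did so in any group. The arrays read bulk RNA, in which fewer cells of a type and less RNA per cell cannot be told apart.

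LPS replicate 1 stood apart from the other arrays. Its median over genes above background on all arrays was 10.77, against 10.879 to 10.937 on the other 11, and its background median was 4.99 against 5.2 to 5.43. Those gene medians also moved with TsSP, at 10.907 to 10.937 on the 6 arrays with it and 10.77 to 10.902 on the 6 without, with no overlap. Rises and falls below are therefore given on the deposited scale first, and with the arrays rescaled where that changes the reading.

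TsSP moved the mitochondrial ribosomal genes in both directions at once. Over both inulin states, which gives the average effect of TsSP, 16 genes were higher and 19 lower among the 76 (limma, Benjamini-Hochberg adjusted p under 0.05, hereafter called). This is 46.1% of them, against 25.8% of all 19505 genes (14.8% higher and 11.0% lower), 48.7% of the 9022 genes above background and 50.1% of the 2448 other expressed genes of like brightness, meaning those with a mean signal in the interquartile range of the 76 genes (10.0 to 12.06). The share is thus near that of expressed genes. Of the 38 mitochondrial ribosomal genes that themselves lie in that brightness range, 7 were higher and 14 lower (55.3%), with a median difference of -0.10 against 0.04 for the other genes in it. The median difference was -0.01 on the log2 scale, with an interquartile range of -0.28 to 0.29, against a median of 0.07 and a range of -0.23 to 0.38 over genes above background. On 9 genes all 6 arrays with TsSP lay above all 6 without, and on 14 they lay below, which together is 30.3% of the 76 against 18.0% of all genes and 37.4% of genes above background.

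**Figure D1:**
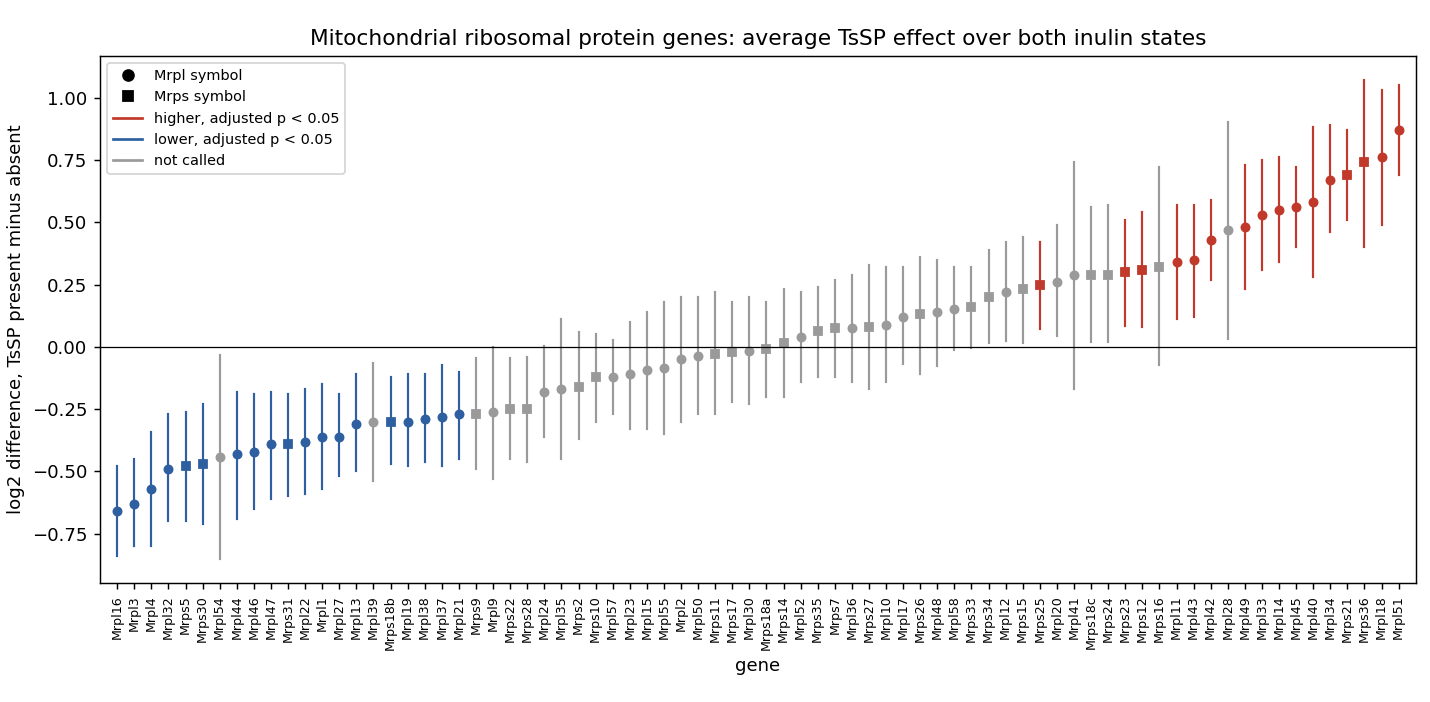
Average TsSP effect on each of the 76 genes, as the log2 difference between arrays with and without TsSP (vertical axis), ordered by size (horizontal axis); points are estimates, bars 95% confidence intervals from limma, circles Mrpl and squares Mrps symbols. The effects run from -0.66 (Mrpl16) to 0.87 (Mrpl51), with 16 genes called higher and 19 lower.

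The split between rises and falls depended on how the arrays were scaled. With quantile normalization 11 genes were higher and 25 lower, and with each array centred on its median 11 were higher and 23 lower, so that the share of rises among called genes went from 45.7% to 30.6% and 32.4%. Without LPS replicate 1 the counts were 14 and 19. The same 30 genes were called in both rescaled fits as in the deposited values. The calls lost in both were those of Mrpl11, Mrpl43, Mrps12, Mrps23 and Mrps25, all rises, and the calls gained in both were those of Mrpl39, Mrps9, Mrps22 and Mrps28, with Mrpl9 and Mrpl54 gained under quantile normalization as well. Leaving out each of the 12 arrays in turn kept 26 of the 35 calls every time, and these 26 also held under both rescalings. The 9 calls that at least 1 such fit lost were Mrpl11, Mrpl13, Mrpl19, Mrpl21, Mrpl37, Mrpl43, Mrps12, Mrps23 and Mrps25.

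The 4 genes whose promoters are printed here had the smallest adjusted p among rises (Mrpl51, Mrps21) and among falls (Mrpl16, Mrpl3). Each sequence is the RefSeq window in assembly GRCm38.p6 from 250 bases before to 50 bases after the annotated start, read 5′ to 3′ on the gene's strand, at chr6:125191950-125192249 (plus strand) for Mrpl51, chr3:95871465-95871764 (minus strand) for Mrps21, chr19:11770165-11770464 (plus strand) for Mrpl16 and chr9:105053018-105053317 (plus strand) for Mrpl3. Capitals mark matches to the motifs described with the promoters further on.
Mrpl51: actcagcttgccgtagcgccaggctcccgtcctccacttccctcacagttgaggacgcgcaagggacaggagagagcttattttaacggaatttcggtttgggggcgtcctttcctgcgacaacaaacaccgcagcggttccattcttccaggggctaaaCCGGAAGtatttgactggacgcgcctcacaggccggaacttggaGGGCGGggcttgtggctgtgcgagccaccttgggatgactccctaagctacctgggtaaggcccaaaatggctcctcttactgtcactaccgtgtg
Mrps21: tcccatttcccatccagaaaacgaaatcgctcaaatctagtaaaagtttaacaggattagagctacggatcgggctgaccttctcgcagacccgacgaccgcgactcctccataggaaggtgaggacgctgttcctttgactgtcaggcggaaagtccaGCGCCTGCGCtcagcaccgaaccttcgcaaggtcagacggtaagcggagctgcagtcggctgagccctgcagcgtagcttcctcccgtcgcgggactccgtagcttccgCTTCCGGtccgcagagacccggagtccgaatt
Mrpl16: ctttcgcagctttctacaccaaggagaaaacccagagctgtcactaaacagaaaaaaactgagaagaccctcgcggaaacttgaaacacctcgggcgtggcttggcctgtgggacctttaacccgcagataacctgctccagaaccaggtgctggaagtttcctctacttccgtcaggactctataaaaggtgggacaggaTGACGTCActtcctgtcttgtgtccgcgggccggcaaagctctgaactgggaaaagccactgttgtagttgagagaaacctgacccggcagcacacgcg
Mrpl3: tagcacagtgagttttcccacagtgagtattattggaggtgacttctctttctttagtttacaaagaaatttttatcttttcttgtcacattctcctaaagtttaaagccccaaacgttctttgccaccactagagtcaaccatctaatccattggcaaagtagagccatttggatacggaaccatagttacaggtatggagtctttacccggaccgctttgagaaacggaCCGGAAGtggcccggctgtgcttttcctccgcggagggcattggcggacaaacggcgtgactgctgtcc

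The largest rise was that of Mrpl51 (transcript cluster TC0600001450.mm.2), which encodes a large-subunit protein with no bacterial counterpart. Its log2 signal was 12.00, 11.74 and 11.75 on the LPS arrays, 11.86, 11.85 and 11.76 with inulin, 12.79, 12.63 and 12.70 with TsSP, and 12.77, 12.63 and 12.66 with both. The arrays with TsSP did not overlap those without, and the inulin arrays lay within the range of the corresponding arrays without inulin. The average TsSP effect was 0.87 (1.83-fold, SE 0.08, 95% interval 0.69 to 1.05, limma adjusted p = 7.89e-06).

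Mrpl18 encodes a large-subunit protein of the bacterial L18 family. It read 10.26, 10.17 and 10.33 with LPS alone, 10.67, 10.42 and 10.18 with inulin, 11.23, 11.30 and 10.94 with TsSP, and 11.33, 11.05 and 10.76 with both. Groups with TsSP lay above those without, although the lowest array with both treatments came within 0.1 of the highest inulin array. The average effect was 0.76 (1.69-fold, SE 0.12, adjusted p = 0.000636).

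Mrpl34, a small protein of the bacterial L34 family, read 10.03, 9.94 and 9.98 with LPS alone and 11.00, 10.75 and 11.03 with TsSP. With inulin it read 10.41, 10.27 and 10.30, and with both 10.65, 10.54 and 10.99. The arrays with TsSP did not overlap those without, but the step was 0.95 without inulin and 0.40 with it. The difference between these steps was -0.55 (SE 0.19, limma unadjusted p = 0.0161, adjusted p = 0.841) and was not called.

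Mrpl45, which tethers the ribosome to the inner membrane beside the insertion machinery, read 13.63, 13.68 and 13.55 with LPS alone, 13.63, 13.70 and 13.61 with inulin, 14.19, 14.25 and 14.35 with TsSP, and 14.15, 14.03 and 14.19 with both. All arrays with TsSP lay above all others. Its average effect was 0.56 (1.47-fold, SE 0.07, adjusted p = 0.000138).

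The other large-subunit genes that rose did so by 0.34 to 0.58. Mrpl14, whose bacterial counterpart lies at the contact between subunits, went from a median of 9.68 over the 6 arrays without TsSP (9.63 to 9.95) to 10.32 over the 6 with it (10.10 to 10.50), a difference of 0.55. Mrpl33, of the bacterial L33 family, went from 13.06 (12.91 to 13.34) to 13.57 (13.49 to 13.83), a difference of 0.53. Mrpl42, a protein with no bacterial counterpart, went from 12.61 (12.49 to 12.69) to 13.04 (12.87 to 13.15), a difference of 0.43. In these 3 genes the arrays did not overlap. Mrpl40 rose by 0.58 and Mrpl49 by 0.48, both mitochondria-specific proteins, with overlap between the arrays: TsSP replicate 1 read 9.07 for Mrpl40, among values of 8.87 to 9.28 without TsSP, while the other 5 arrays with TsSP lay at 9.47 to 9.85. Mrpl43 (0.35) and Mrpl11, which forms part of the stalk base where translation factors bind (0.34), also rose on the deposited scale.

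**Figure D2:**
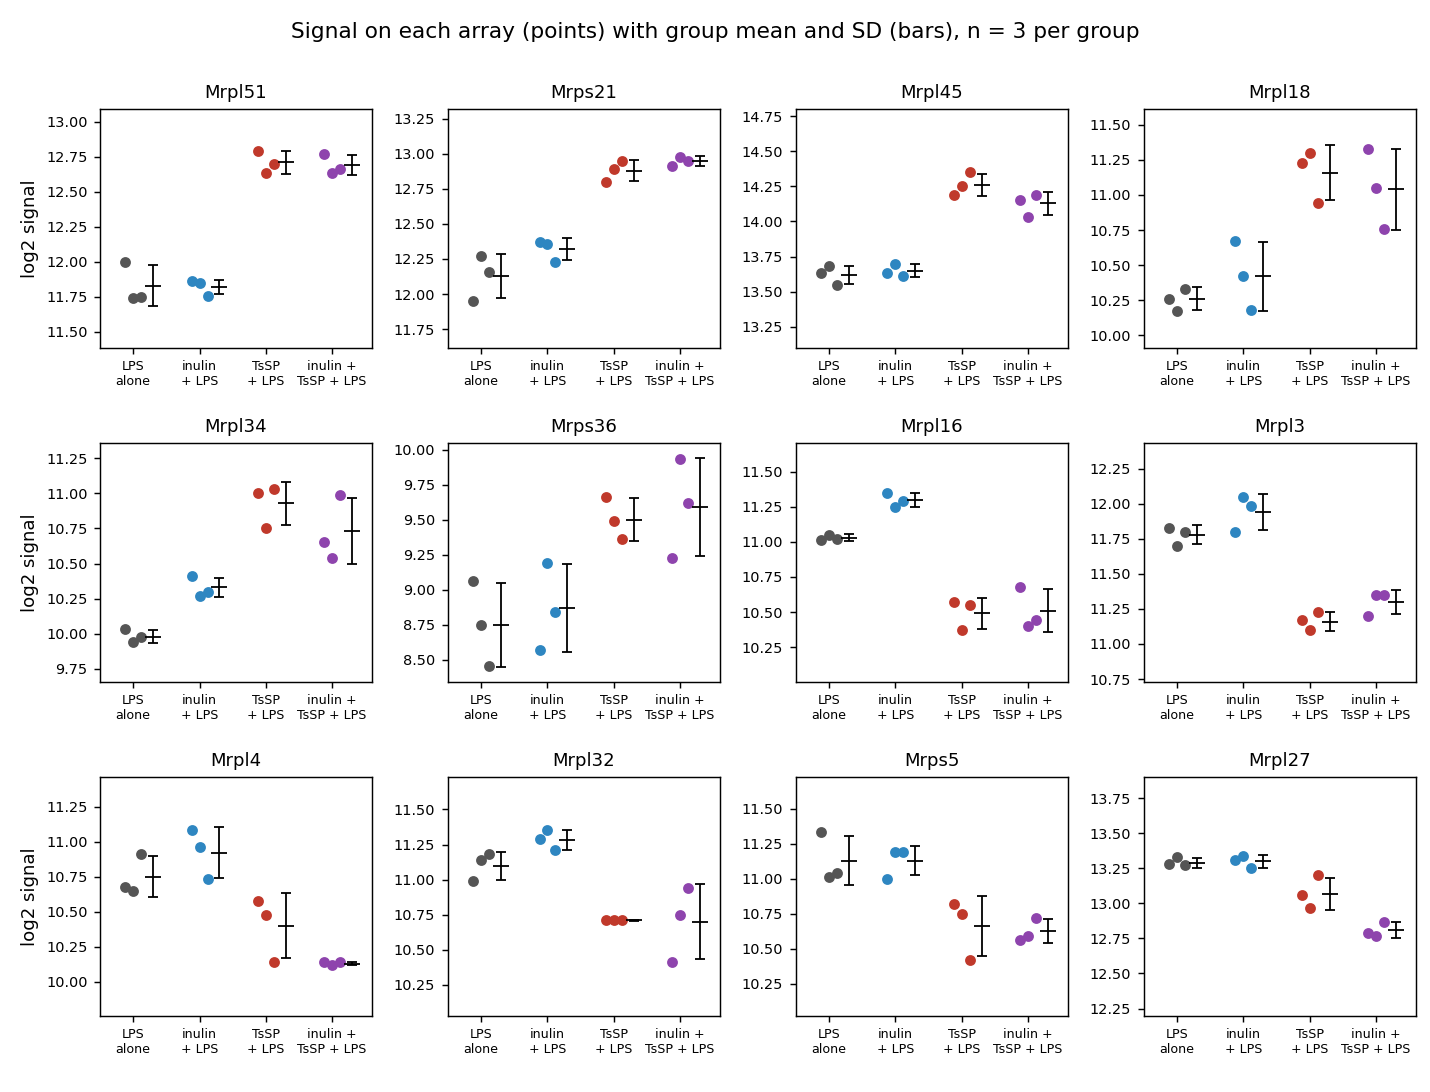
Log2 signal (vertical axes, each spanning the same range) of 12 genes on each array, by treatment group; points are arrays, and the bar beside each group is its mean with SD (n = 3). Mrpl51 lies at 11.74 to 12.00 without TsSP and 12.63 to 12.79 with it, and Mrpl16 at 11.01 to 11.35 without and 10.37 to 10.68 with.

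Falls were led by Mrpl16 (TC1900000232.mm.2), whose bacterial relative lies beside the peptidyl transferase centre, where peptide bonds form. It read 11.01, 11.05 and 11.02 with LPS alone, 11.35, 11.25 and 11.29 with inulin, 10.57, 10.37 and 10.55 with TsSP, and 10.68, 10.40 and 10.44 with both. The arrays with TsSP lay below all others, and the 3 inulin arrays lay above the 3 with LPS alone, by 0.27 (limma unadjusted p = 0.0385, adjusted p = 0.836). The average TsSP effect was -0.66 (1.58-fold lower, SE 0.08, adjusted p = 7.78e-05).

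Mrpl3 encodes the relative of bacterial L3, a protein placed early in large-subunit assembly. Its signal was 11.83, 11.70 and 11.80 with LPS alone, 11.80, 12.05 and 11.98 with inulin, 11.17, 11.10 and 11.23 with TsSP, and 11.20, 11.35 and 11.35 with both. The groups with and without TsSP were apart by more than their spread, with an average effect of -0.63 (1.54-fold lower, SE 0.08, adjusted p = 9.29e-05).

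Mrpl4, whose bacterial relative lines the exit tunnel for new peptides, read 10.68, 10.65 and 10.91 with LPS alone and 10.58, 10.48 and 10.14 with TsSP. It read 11.08, 10.96 and 10.73 with inulin and 10.14, 10.12 and 10.14 with both. The fall of 0.79 when TsSP was added to inulin passed the test (adjusted p = 0.00262), and the difference of -0.34 without inulin did not (adjusted p = 0.142); the test of the difference between them made no call either.

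Mrpl32, which matures through cleavage by the m-AAA protease in the inner membrane, went from a median of 11.19 without TsSP (10.99 to 11.35) to 10.71 with it (10.41 to 10.94), a difference of -0.49. Its 3 TsSP arrays all read 10.71. Mrpl27, of the bacterial L27 family, fell by 0.36, with 13.25 to 13.34 on the 6 arrays without TsSP, 12.97 to 13.20 with TsSP and 12.77 to 12.87 with both. Mrpl44, a protein related to ribonuclease III, fell by 0.43 with overlapping arrays.

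The remaining large-subunit falls were of 0.27 to 0.42. They were Mrpl46 (0.42), Mrpl47 (0.39), Mrpl22 (0.38), Mrpl1 (0.36), Mrpl13 (0.31), Mrpl19 (0.30), Mrpl38 (0.29), Mrpl37 (0.28) and Mrpl21 (0.27). Mrpl22 is a relative of a bacterial tunnel protein, and Mrpl1 of the protein that forms the mobile L1 stalk. Arrays with and without TsSP did not overlap for 7 of the 9, the exceptions being Mrpl46 and Mrpl1.

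Among the 28 genes with an Mrps symbol 5 rose and 4 fell, counted by symbol and so with Mrps36 and Mrps30, described below. Mrps21 (TC0300002488.mm.2), of the bacterial S21 family, rose furthest among those that belong to the ribosome. It read 11.95, 12.27 and 12.16 with LPS alone, 12.37, 12.36 and 12.23 with inulin, 12.80, 12.89 and 12.95 with TsSP, and 12.91, 12.98 and 12.95 with both. No array with TsSP overlapped those without, and the average effect was 0.69 (1.61-fold, SE 0.08, adjusted p = 5.32e-05).

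Mrps36 bears a ribosomal symbol, but its product is now regarded as a component of the 2-oxoglutarate dehydrogenase complex of the citric acid cycle. It read 9.06, 8.75 and 8.46 with LPS alone, 8.57, 9.19 and 8.84 with inulin, 9.66, 9.49 and 9.36 with TsSP, and 9.23, 9.93 and 9.62 with both. The highest array without TsSP (9.19) lay just under the lowest with it (9.23), and the average effect was 0.74 (SE 0.16, adjusted p = 0.00376). Mrps12, a protein of the decoding centre (0.31), and the mitochondria-specific Mrps23 (0.30) and Mrps25 (0.25) rose on the deposited scale, and their calls were lost on rescaling.

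Among small-subunit symbols the falls were those of Mrps5, of the bacterial S5 family, Mrps30, Mrps31 and Mrps18b. Mrps5 read 11.33, 11.01 and 11.04 with LPS alone, 11.00, 11.19 and 11.19 with inulin, 10.82, 10.75 and 10.42 with TsSP, and 10.56, 10.59 and 10.72 with both, an average effect of -0.48 (SE 0.10, adjusted p = 0.00329) with no overlap. Mrps30, which despite its symbol sits in the large subunit, fell by 0.47, Mrps31 by 0.39 and Mrps18b by 0.30. Mrps22 was called in a single comparison, both treatments against LPS alone, at -0.41 (adjusted p = 0.0478), a call that 10 of the 12 leave-one-out fits lost. Its average TsSP effect of -0.25 did not pass on the deposited scale (adjusted p = 0.071).

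Grouped by symbol, 11 of 48 large-subunit genes rose and 15 fell. Genes were also grouped by number, a division chosen after their values were seen: numbers up to 36 for the large and 21 for the small subunit are those also used in bacteria, although a few genes with higher numbers have bacterial relatives. Of the 28 large-subunit genes in the bacterial range 5 rose and 10 fell, and of the 20 with higher numbers 6 rose and 5 fell. Of the Mrps symbols 2 rose and 2 fell of 15 in the bacterial range, and 3 rose and 2 fell of 13 above it. The latter include Mrps36 and Mrps30. Every one of these 4 groups held rises and falls, and no difference between them was tested.

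The 41 genes not called included some with wide intervals. Mrpl28, a large-subunit protein, differed by 0.47 with a 95% interval of 0.03 to 0.90, and Mrpl54 by -0.44. The half-width of the 95% interval for the average effect had a median of 0.21 over the 76 genes and ran from 0.15 to 0.45. The call of Mrps12 (adjusted p = 0.0487) and the missed one of Mrpl39, at -0.30 (adjusted p = 0.0621), lay on either side of the threshold.

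The effects were of moderate size. None of the 76 average effects passed 1 on the log2 scale, which is 2-fold, against 958 of the 9022 genes above background (10.6%) and 234 of the 2448 of like brightness (9.56%). Their standard deviation was 0.36, against 0.69 and 0.65. The interquartile widths were closer, at 0.57, 0.61 and 0.60. The 56 cytosolic ribosomal protein genes above background had a standard deviation of 0.10.

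**Figure D3:**
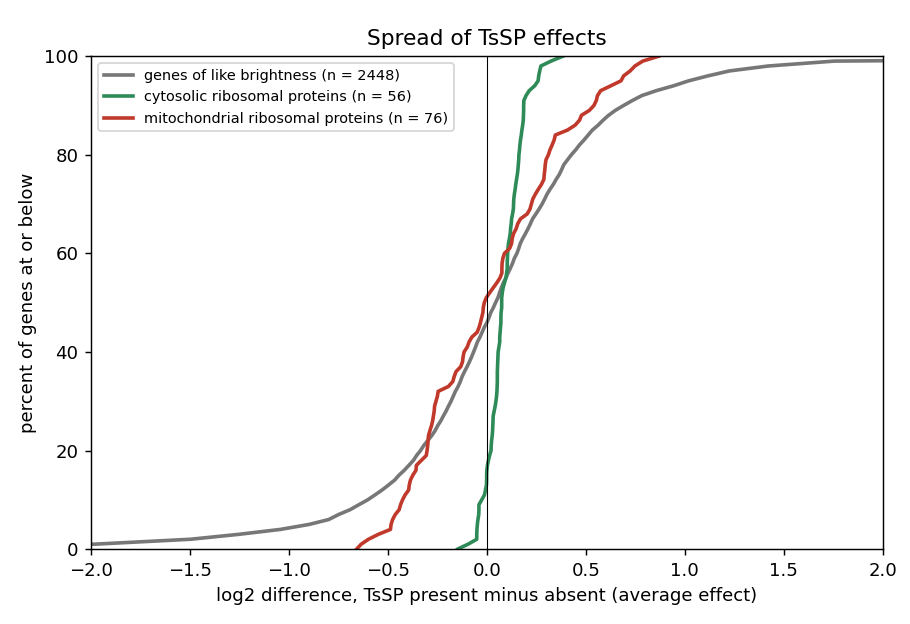
Cumulative share of genes (vertical axis, percent) by average TsSP effect (horizontal axis, log2 difference, cut at -2 and 2) for 76 mitochondrial ribosomal protein genes, 2448 other expressed genes of like brightness and 56 cytosolic ribosomal protein genes above background. The mitochondrial curve ends at -0.66 and 0.87, inside the tails of the genes of like brightness and outside the narrow cytosolic curve.

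TsSP against LPS alone gave 10 higher and 4 lower genes. These 14 are 18.4% of the 76, beside 18.1% of all genes (11.0% higher and 7.08% lower), 34.9% of those above background and 35.2% of those of like brightness. Rescaling changed the split to 9 and 9 (quantile normalization) and 7 and 8 (median centring), and without LPS replicate 1 it was 9 and 2. The count fell to 9 without LPS replicate 3 and without TsSP replicate 2. The median difference was 0.07, against 0.11 over genes above background and 0.09 over those of like brightness. On rescaling, the median over genes above background moved to 0.014 (quantile normalization) and 0.026 (median centring). The split of all genes under these scalings is not given here.

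TsSP added to inulin gave 9 higher and 11 lower genes, 26.3% of the 76, beside 16.7% of all genes (8.66% higher and 7.99% lower), 32.4% of those above background and 34.0% of those of like brightness. The median difference was -0.06, against 0.04 over genes above background. This count was sensitive to single arrays: it fell to 11 without inulin replicate 2, and to 13, 10 and 12 without replicates 1, 2 and 3 of the group with both treatments. Both treatments against LPS alone, which reuses the LPS arrays, gave 10 higher and 6 lower genes, beside 17.6% of all genes (10.3% higher and 7.3% lower) and 34.4% of those above background. Rescaling changed this split to 8 higher and 10 lower (quantile normalization) and to 9 and 9 (median centring). The median difference over genes above background moved as well, from 0.09 to 0.0084 and 0.025, and the rescaled split of all genes is not given here.

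The TsSP effect was measured in 2 pairs of groups that share no arrays, without and with inulin. Over the 76 genes these differences had r = 0.89 and rho = 0.89, given as a description across genes, which are not independent, and 65 of 76 (85.5%) had the same sign. Among genes above background r was 0.94 and 84.7% had the same sign. Called in both pairs were 11 genes, all in the same direction, which is 78.6% of the 14 called without inulin and 55.0% of the 20 called with it. Of genes above background 2422 were called in both, again all in the same direction, which is 76.9% and 82.8% of those called in each pair, and for genes of like brightness the shares were 80.1% and 82.9%. The 11 mitochondrial ribosomal genes were Mrpl14, Mrpl18, Mrpl33, Mrpl42, Mrpl45, Mrpl51, Mrps21 and Mrps36, which rose, and Mrpl3, Mrpl16 and Mrps5, which fell. Both calls held in all 12 leave-one-out fits for 5 of the 11, Mrpl3, Mrpl16, Mrpl45, Mrpl51 and Mrps21, while Mrpl33 and Mrps36 lost the call with inulin in 10 and 8 of the fits and Mrps5 the call without inulin in 8. Mrpl51 differed by 0.88 without inulin and 0.86 with it, Mrps36 by 0.75 and 0.72, Mrpl3 by -0.61 and -0.64, and Mrps5 by -0.47 and -0.50. Calls made in a single pair were those of Mrpl34, Mrpl44 and Mrpl49 without inulin and of Mrpl1, Mrpl4, Mrpl21, Mrpl27, Mrpl32, Mrpl40, Mrpl46, Mrps30 and Mrps31 with it, but none of the 76 passed the test of the difference between the pairs.

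**Figure D4:**
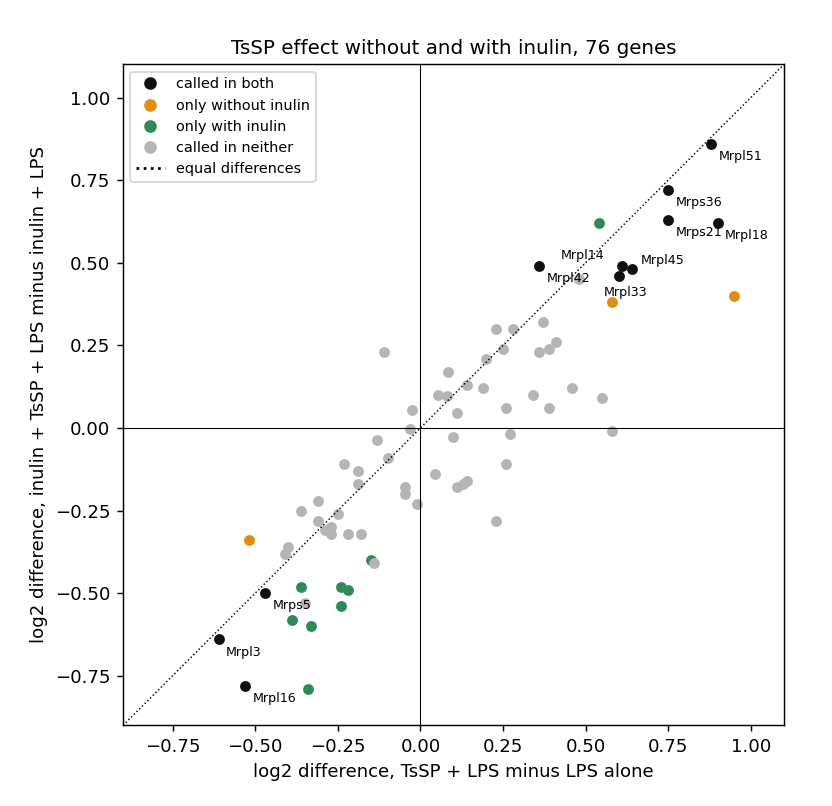
TsSP effect without inulin (horizontal axis) and with inulin (vertical axis), both log2 differences of group means, for 76 genes; colours show in which comparison a gene was called, and the dotted line marks equal effects. The 11 genes called in both lie at lower left and upper right, and 65 of 76 genes have the same sign on both axes.

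Inulin moved no mitochondrial ribosomal gene past the test. For inulin against LPS alone 0 of 76 were called, beside 0.0% of all 19505 genes, and 4 had an unadjusted limma p under 0.05, beside 5.86% of all genes. These were Mrpl1 (0.43), Mrps30 (0.36), Mrpl34 (0.34) and Mrpl16 (0.27), with adjusted p of 0.661 to 0.838. For inulin added to TsSP 0 were called and 2 had an unadjusted p under 0.05, Mrpl27 (-0.27) and Mrps35 (0.27), beside 4.98% of all genes. For the test of whether inulin altered the TsSP effect 0 were called, and Mrpl34 (-0.55) and Mrps11 (-0.51) had an unadjusted p under 0.05, beside 5.58% of all genes. None of the alternative fits made a call in these comparisons. The half-width of the 95% interval for an inulin difference had a median of 0.30 and ran from 0.21 to 0.64. Over the 76 genes the interval limits reached -0.63 and 1.04 for inulin against LPS alone. For inulin added to TsSP they reached -0.83 and 0.62. The arrays therefore do not show inulin effects within these limits to be absent. The median difference for inulin against LPS alone was 0.09, against 0.05 over genes above background. It was above 0 for 58 of the 76 genes, beside 5827 of the 9022 above background. The median signal of the 76 genes was 11.26, 11.23 and 11.04 on inulin replicates 1, 2 and 3. With LPS alone it was 11.00, 11.06 and 11.04, so inulin replicate 3 lay within the LPS range.

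The other proteins of mitochondrial translation were taken as lists. Of the 4 measured ribosome subunits without an Mrp symbol, Dap3, a GTP-binding subunit (0.17), Chchd1 (0.23), Gadd45gip1 (0.05) and Ptcd3 (-0.06), none passed the test for the average TsSP effect. Of 27 measured genes for building the mitochondrial ribosome 1 rose and 8 fell. Gtpbp10, a GTPase of large-subunit maturation, went from a median of 10.83 without TsSP (10.57 to 10.95) to 10.01 with it (9.82 to 10.30), a difference of -0.73 (adjusted p = 3.66e-05). Eral1, which binds the small-subunit RNA, fell by 0.69, Tfb1m, which methylates that RNA, by 0.59, and Mterf3 by 0.48, while Mpv17l2 rose by 0.65. The list's median difference was 0.00.

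Of 16 measured translation factors none rose and 4 fell: Gfm1 (0.54), the elongation factor that moves the ribosome along, Gfm2 (0.31), which acts in ribosome recycling, Guf1 (0.70), and Lrpprc (0.59), which stabilises mitochondrial messenger RNAs. Of 21 aminoacyl-tRNA synthetases of mitochondria, which load tRNAs with amino acids, 5 fell: Kars (0.50) and Gars (0.26), which also serve the cytosol, and Rars2 (0.67), Sars2 (0.50) and Mars2 (0.49). Aars2 was called higher but did not lie above background on all arrays of any group, and its call was lost under quantile normalization. Of 20 genes for keeping and reading mitochondrial DNA 6 fell and 4 were called higher. The falls were led by Pnpt1, the RNA-degrading polynucleotide phosphorylase, which went from 14.88 (14.78 to 14.90) to 13.83 (13.78 to 13.87), a difference of -1.03 (adjusted p = 5.24e-07). Its RNA helicase partner Supv3l1 fell by 0.88, the transcription elongation factor Tefm by 0.91 and the poly(A) polymerase Mtpap by 0.55. Tfb2m, which starts mitochondrial transcription (0.40), and Hsd17b10 (0.37) rose, and Polg2 and Mterf2 were called higher at signals not above background on all arrays of any group. The RNAs encoded by mitochondrial DNA were not analysed here.

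Of 11 regulators of mitochondrial gene expression 3 rose and 2 fell. The coactivator gene Ppargc1b differed by 0.82, from 5.66 to 6.52 without TsSP and 6.50 to 7.57 with it, at the edge of background in the groups without TsSP. Tfe3 rose by 0.48 and Yy1 by 0.25. Gabpb1, a subunit of the ETS factor GABP, went from 12.64 (12.52 to 12.86) to 11.98 (11.83 to 12.20), a difference of -0.67 (adjusted p = 0.00014), and Myc fell by 0.41. Of 60 cytosolic ribosomal protein genes 4 rose, Rpl37a (0.39), Rpl39 (0.27), Rpl21 (0.26) and Rps21 (0.26), and none fell, with a median difference of 0.08. The counts of these lists stand beside 25.8% of all genes called (14.8% higher and 11.0% lower). Most genes of each list lay above background, and of the 9022 genes above background 48.7% were called, 2572 higher and 1821 lower. The called share was below that 48.7% in every list except the one for keeping and reading mitochondrial DNA. No difference between a list and these genes was tested.

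**Figure D5:**
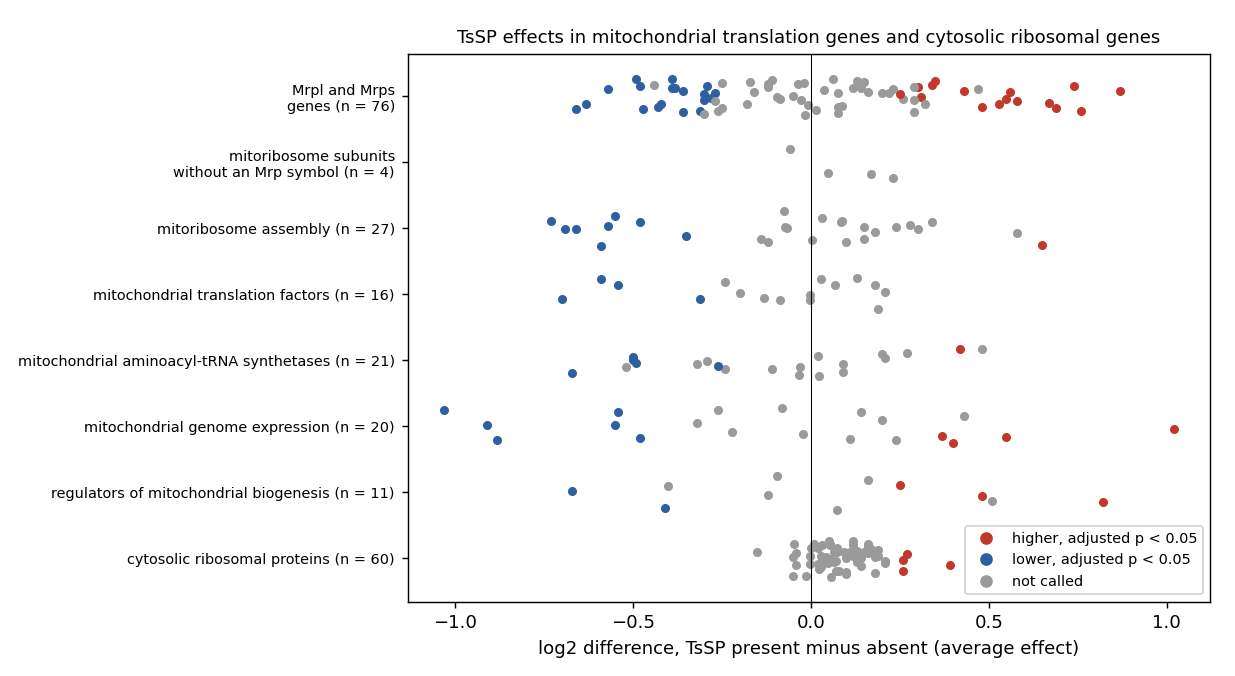
Average TsSP effect (horizontal axis, log2 difference) for each measured gene of 8 groups (rows, with the number measured); points are genes, coloured by call, with vertical scatter for legibility. Among the 76 mitochondrial ribosomal genes calls lie on both sides of 0, the 4 subunits without an Mrp symbol hold none, and the cytosolic ribosomal proteins lie between -0.15 and 0.39.

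RefSeq promoter windows of 300 bases were matched for 67 of the 76 genes by symbol. Motifs were searched on both strands and a gene counted once if any of its windows held a match. The ETS core CCGGAAG, bound by GABP among others, was found for 37.3% of the matched genes, beside 22.9% of genes above background and 8.86% of all windows. It occurs in the windows of Mrpl51, Mrps21 and Mrpl3 printed above. By call it was found in 8 of 16 genes that rose, 5 of 15 that fell and 12 of 36 not called. The YY1 core ATGGCGG was found for 17.9%, beside 10.6% of genes above background and 4.05% of all windows, in none of 16 that rose, 5 of 15 that fell and 7 of 36 not called. Its longer form was found for 7.46% (2.84% and 0.852%), none of them among the rises. The full palindromic NRF1 site, searched under that name, was found for 4.48% (2.72% of genes above background, 0.971% of all windows), and the same site with both central bases open, which includes it, for 20.9% (16.6% and 6.23%). The latter occurs in the Mrps21 window. The SP1 core GGGCGG was less frequent than in expressed genes, at 49.3% beside 69.6%, and in 35.7% of all windows, and the Mrpl51 window holds a match. The E-box CACGTG was found for 7.46% (12.3% and 7.15%) and the CRE TGACGTCA, which the Mrpl16 window holds, for 2.99% (3.86% and 1.79%), with TGACGTNA, which includes it, also at 2.99% (6.2% and 2.93%). Absence from the rises was not particular to YY1. The NRF1 palindrome and the E-box were each found in 0 of 16 genes that rose and 1 of 15 that fell. Among genes not called they were found in 2 and 4 of 36. Motif shares among all expressed genes that rose or fell are not given here, and no difference was tested. A match is a run of letters and not a measured binding site.

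Some of these genes start beside another gene read in the opposite direction, which was examined after the values had been seen. The share of other genes with such a neighbour is not given here, so this is not shown to be particular to these genes. A start of an oppositely transcribed neighbour lay within 1000 bases upstream in 26 cases, with Mrpl46 and Mrps11, which face each other, counted from both sides. The neighbour was above background in 21, and its average TsSP effect had the same sign as that of the ribosomal gene in 12 of these. Both partners were called in 2 pairs: Mrpl51 and the condensin gene Ncapd2 (0.59) both rose, while Mrps12 rose and the synthetase gene Sars2 fell. Mrpl46 fell by 0.42 and its partner Mrps11 differed by -0.03 (adjusted p = 0.90).

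Once shifts shared by a whole array were removed, the genes did not rise and fall as a block across the arrays. For this, each array was centred on its median over genes above background on all arrays. On these centred values the mean over the 76 genes spanned 0.12 on the log2 scale over the 12 arrays. Single genes correlated with the mean of the others at r from -0.71 to 0.79, with a median of 0.23. The genes most like this mean, by r over 12 arrays that share their treatment groups, were Lsm1 (0.94), Tmem39a (0.90), Eif6 (0.89), Tipin (0.87) and Atpif1 (0.86).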

How the data were processed

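Total RNA (RNeasy kit) was biotin-labelled for the arrays, per the labels' protocols. The deposited table holds 1 value per probe set and array, taken as log2 signal because the values run from 1.32 to 18.9; how the authors corrected background and normalized is not given in the sources used here, and any compression they caused is carried into the differences. Of 28846 probe sets, 19572 have 1 symbol, all matched by gene number to RefSeq, giving 19505 genes.

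One limma model (lmFit and eBayes, limma 3.58.1, R 4.3.3) with a mean for each of 4 groups was fitted to all genes (8 residual and 3.35 prior degrees of freedom), with 7 contrasts, two-sided p-values adjusted over all genes of each contrast, and a threshold of 0.05. SE is limma's, and folds are 2 to the power of the log2 difference. The fit was tested on simulated data in which 200 of 19505 genes were changed by known amounts. For the average TsSP effect it called 0% of changes of 0.25 and 38% of 0.5 on the log2 scale. It called 94% of changes of 1 and 98% of 2, with 8 false calls. Small changes were thus often missed there. Far more genes were called in the arrays than were changed in the simulation, so these shares need not hold for the arrays. Figures were drawn in Python 3.11.15 with matplotlib 3.10.9. Other scalings, a variance trend, a background filter, another probe rule, a replicate block and 12 leave-one-out fits were tried.

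Named were all members called in any contrast, the 5 highest and 5 lowest by mean signal, members whose call changes on rescaling, and up to 4 genes per list by smallest p for the average TsSP effect (more for counts of 5 or fewer). Others were named after their values were seen, namely Mrpl28, Mrps11 and the neighbouring genes. The members and lists were chosen with earlier results of these data known.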

Additional observations from a re-analysis of the deposited data

How the results depend on the processing

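On the deposited scale 14 genes were called for TsSP against LPS alone, 16 for both treatments against LPS alone and 20 for TsSP added to inulin. With a mean-variance trend these counts became 26, 25 and 27. With the model refitted to genes above background only, they became 33, 31 and 29. That refit estimated limma's prior anew and also adjusted over fewer genes. The average effect, with 35 calls on the deposited scale, had 43 and 48 in these 2 fits. The share of all genes called in them is not given here. Leaving out single arrays gave 9 to 15 calls for TsSP against LPS alone, 10 to 19 for TsSP added to inulin and 27 to 33, against 35, for the average effect. The median difference for TsSP against LPS alone moved from 0.07 to -0.032 under quantile normalization and -0.019 under median centring, that for both treatments from 0.05 to -0.037 and -0.019, and that for the interaction from -0.12 to -0.027 and -0.045; genes above background moved too, from 0.11 to 0.01 and 0.03 for TsSP against LPS alone. For the 126 values of single genes, 1995 of the values under an alternative were counted as unchanged, 228 lost a call and 41 gained one. Unchanged meant a call kept in the same direction, or a difference still not called that shifted by less than its SE. Another 4 differences, not called, shifted by their SE or more. No call reversed direction, while changes of sign among differences not called were not counted. Replicate numbers did not pair the arrays: deviations of same-numbered arrays correlated at r = -0.09 to 0.11 over 18 pairs, and 3 of 12 arrays matched best with their own number. With the replicate block the calls for TsSP added to inulin fell from 20 to 13, those for TsSP against LPS alone to 11, those for both treatments to 14 and those for the average effect to 31; the cause was not tested. With 3 arrays per group, the number of arrays limits precision.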

Other observations

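The mitochondrial ribosomal protein genes are short by their annotated span in RefSeq, with a median of 7.69 kb against 23.1 kb for 9020 genes above background that have a span. The 16 that rose with TsSP had a median of 7.57 kb, the 19 that fell 8.16 kb and the 41 not called 5.97 kb. Among all genes above background those that rose had a median of 18.5 kb and those that fell 26.2 kb. This was looked at after the values were seen and is given as a description.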
